A study of Mus musculus with 3 samples.

Results

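The Runx2 locus, with the overlapping gene Supt3, was examined for binding of the leukaemia fusion protein NUP98-HOXD13. Its members were all called intervals whose summit lay in or within 10 kb of the RefSeq span of either gene on chromosome 17 of the mm10 genome. There were 4 such intervals among the 1094 of the series, 3 from the DMSO library and 1 from the VTP50469 library. The locus was chosen by its peaks in these same lists, with their positions, folds and overlap already known, so those values are a description and carry no test.

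The material was a mouse leukaemia line named for its driver, in which part of the nuclear pore protein NUP98 is joined to the homeodomain end of HOXD13, and all samples came from this line. The cells were grown with mouse IL-3, IL-6 and SCF, and received DMSO, the solvent control, or 2 µM VTP50469, a small molecule that blocks the contact between menin and MLL. All samples were labelled 96 h. The biotinylated fusion was recovered with its crosslinked DNA on streptavidin beads (BioChIP-seq), with 1 library for each treatment, and a DMSO input made up the third sample and was not analysed here as a list of its own. How the biotin-carrying fusion was introduced, and whether the line is a single clone, is not given in the sources used here. The lists hold no expression values, so the labelled cell type could not be checked against marker genes, and no RNA of Runx2 or Supt3 was measured.

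RUNX2 is a runt-domain transcription factor that binds DNA together with CBFB and is best known for driving the differentiation of bone-forming cells. Its relative RUNX1 has the larger role in normal blood formation, and RUNX proteins are recurrent players in myeloid leukaemia. SUPT3, the mouse counterpart of yeast Spt3, belongs to SAGA, a coactivator complex that acetylates histones and helps to deliver the TATA-binding protein. The 2 genes are transcribed in opposite directions, and their first parts overlap. MLL is a histone methyltransferase recruited with menin, and their contact is a target of inhibitors in leukaemias that keep HOX genes active.

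In RefSeq, Runx2 (gene 12393) runs from 44495987 to 44814797 and is transcribed from the minus strand, towards lower coordinates. Supt3 (gene 109115) runs from 44777118 to 45119294 on the plus strand. The spans share 37680 bp, from 44777118 to 44814797. The gene starts used in the RefSeq promoter table are 44814627 for Runx2 and 44777166 for Supt3, 37461 bp apart. Every summit of the locus, in both lists, lay in this shared stretch.

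No genome sequence was used here, so the bases under the peaks are not shown. The sequences at hand were those just outside the 2 spans, and they are given because these ends flank the stretch that held the peaks while holding no peak themselves. Both come from RefSeq (GRCm38.p6, the patched form of mm10), are written 5′ to 3′ on the strand of the gene, and have in capitals the matches to homeobox and RUNX words. These words, searched on both strands, were the homeobox core TAAT, the posterior HOX words AATAAA and, with any base as N, TTTATNG, the joint words of HOX and PBX proteins TGATTTAT as well as the related TGATTGAT, the MEIS word TGACAG, and the RUNX word TGTGGT, which reads as ACCACA on its other strand. The short ETS core GGAA was searched too and is left in lower case. No 2 of the matches overlapped.
Runx2, chr17:44814798-44814877, minus strand: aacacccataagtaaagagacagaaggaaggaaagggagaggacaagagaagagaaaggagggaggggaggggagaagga
Supt3, chr17:44776916-44777117, plus strand: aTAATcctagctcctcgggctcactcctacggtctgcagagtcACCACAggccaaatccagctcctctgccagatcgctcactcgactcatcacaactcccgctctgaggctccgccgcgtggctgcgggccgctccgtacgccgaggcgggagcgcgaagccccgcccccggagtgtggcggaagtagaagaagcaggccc

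The 80 bases beyond the Runx2 end held none of the words marked in capitals. They held the ETS core GGAA 2 times, a word found on either strand in 59.5% of the 21263 protein-coding promoter windows trimmed to that length. The stretch was mostly A and G: purines made up 90% of it, against a median of 50% over those windows. The 202 bases beyond the Supt3 end held TAAT and the RUNX word 1 time each, and these words stood in 45.8% and 10.3% of windows of that length. GGAA occurred 1 time, as it did at least once in 89.2% of such windows. Its GC content was 65.8%, above the median of 54.5%. The nearest peak summit lay 4839 bp from the Runx2 stretch and 30092 bp from the Supt3 stretch, so these letters say nothing about the bound sites themselves.

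In cells given DMSO, the fusion formed a tract of 3 peaks in 4021 bp, from 44806147 to 44810167, inside the Runx2 gene near its start. In cells given VTP50469, 1 narrow peak was listed there, at the summit of the strongest DMSO peak. With no replicate of either library, every contrast below is between 2 libraries, and no spread between samples stands behind it. Each fold is the authors' enrichment of that library over its local background, and −log10 q is their adjusted measure of strength. The lists were called separately, so folds of different lists are set side by side and not divided.

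The first DMSO peak spanned 44806147 to 44807491 of chromosome 17, with its summit at 44807212. It was 1345 bp wide, and its fold was 26.5 with a −log10 q of 76.4. By strength it was number 10 of the 613 DMSO peaks on chromosomes 1 to 19, X and Y, by fold number 7, and by width number 23. Its fold was 3.46 times the median of its list, which was 7.64. The summit lay 7415 bp downstream of the Runx2 start and 30046 bp downstream of the Supt3 start. It was not central: 1065 bp of the interval lay on the side away from the Runx2 start and 279 bp on the side towards it.

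The second DMSO peak spanned 44808416 to 44809050, with its summit at 44808769, 5858 bp downstream of the Runx2 start. It was 635 bp wide, with a fold of 8.41 and a −log10 q of 18.0, number 164 in its list. The third spanned 44809645 to 44810167, with its summit at 44809959, 4668 bp downstream of the Runx2 start. It was 523 bp wide, with a fold of 11.1 and a −log10 q of 18.3, number 159 in its list. These flanking peaks were thus of nearly the same strength, above the list's median −log10 q of 10.2, and both were wider than its median width of 350 bp. The peak nearest to the Runx2 start had the higher fold of the pair.

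The summits followed each other at 1557 and 1190 bp, with uncalled gaps of 924 and 594 bp between the intervals. Called intervals filled 62.2% of the tract, or 2503 bp. All 3 summits were inside both gene spans, between 4838 and 7585 bp from the upper end of the Runx2 span and at least 30094 bp inside the Supt3 span. The RefSeq table used here gives spans and starts without exons, so exon, intron or UTR cannot be assigned to these positions.

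In the list from cells given VTP50469, the peak spanned 44807021 to 44807304, with its summit at 44807209. It was 284 bp wide, with a fold of 7.77 and a −log10 q of 10.0, and was number 194 of the 400 peaks of its list by strength and number 180 by fold. Its fold was 1.06 times the median of that list, 7.33, and its width was below that list's median of 335 bp. Ranks in lists of different length do not by themselves show a change. What they show is its standing within each list: the DMSO peak belonged to the strongest of 4 equal bins of its list, and the VTP50469 peak had a strength close to the list's median of 9.88.

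**Figure D1:**
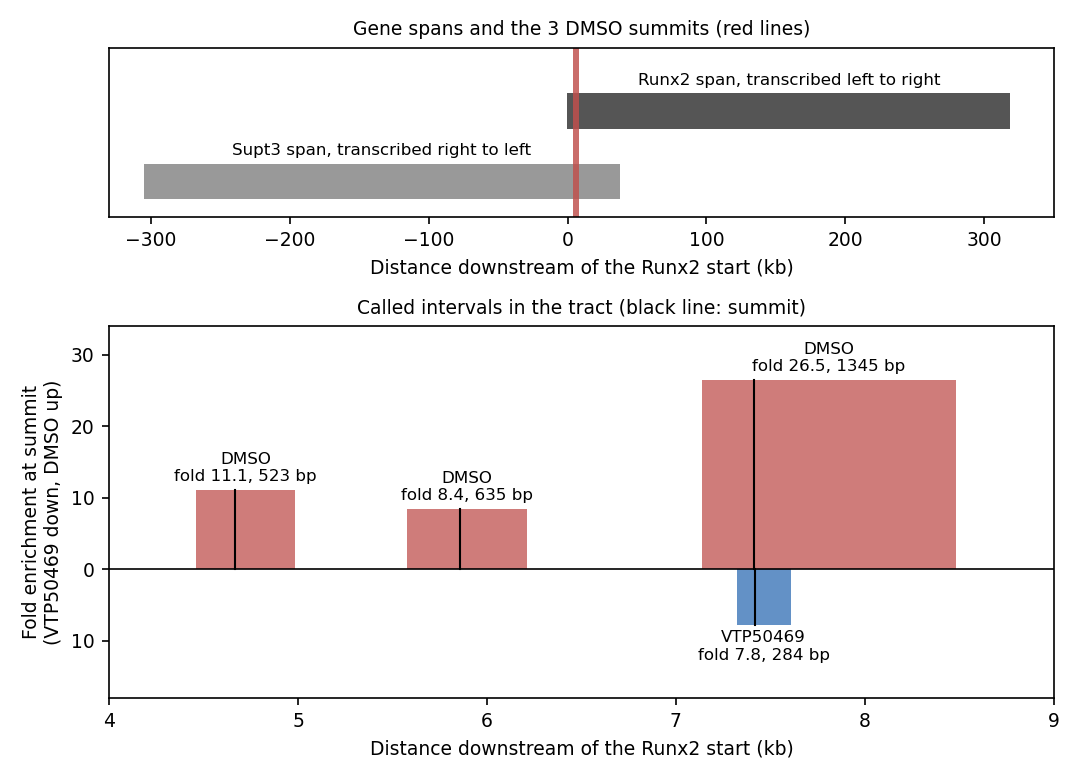
Upper panel: the spans of Runx2 and Supt3 and the 3 DMSO summits, on a horizontal axis of distance downstream of the Runx2 start in kb. Lower panel: the called intervals, drawn to scale in width, with the fold enrichment at the summit on the vertical axis, DMSO upwards and VTP50469 downwards; 1 library each, so there are no error bars. The single VTP50469 interval of 284 bp lies under the summit of the 1345 bp DMSO interval, and none lies under the other DMSO peaks.

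The VTP50469 summit and the first DMSO summit were 3 bp apart. The VTP50469 interval lay wholly inside the DMSO interval and covered 284 of its 1345 bp, or 21.1%. What was not called with VTP50469 was mainly the side away from the Runx2 start, 874 bp, with a further 187 bp on the other side. The other DMSO peaks, the second and the third, overlapped no VTP50469 peak, and the nearest VTP50469 summit was 1560 and 2750 bp away, that is, the one at the first peak. Called sequence at the locus therefore came to 2503 bp with DMSO and 284 bp with VTP50469.

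Of the tract's 3 peaks with DMSO, 1 overlapped a VTP50469 peak, against 49.8% over the whole DMSO list, and 2 did not, against 50.2%. The latter belonged to the second strongest of the 4 bins by −log10 q, which ran from 10.2 to 19.6, and in that bin 50.3% of peaks had no VTP50469 counterpart. The first peak belonged to the strongest bin, in which 13.1% had none. A count of 2 in 3 is near these shares and is no result about the locus. The one VTP50469 peak overlapped a DMSO peak, as did 77.8% of that list.

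**Figure D2:**
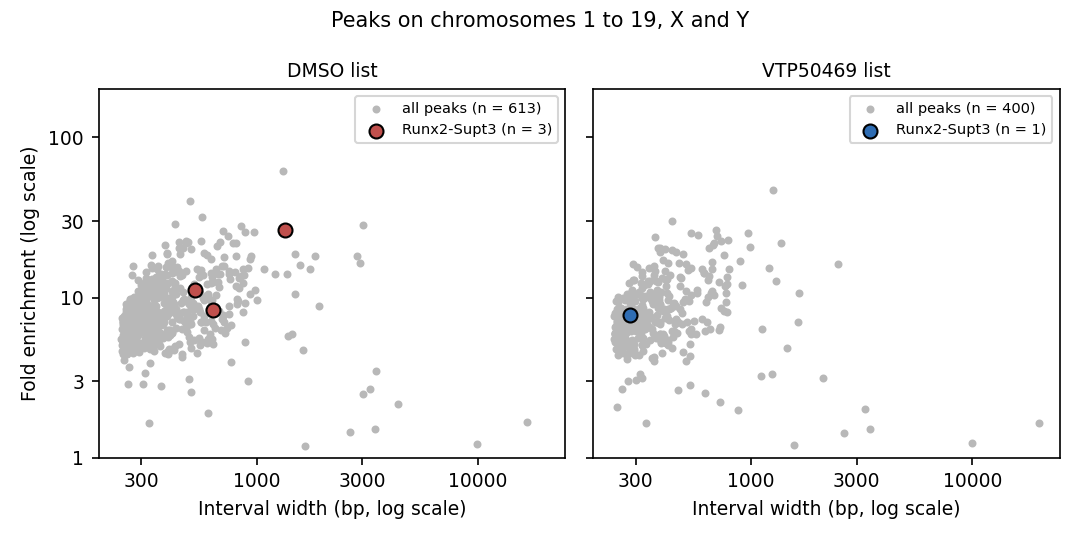
Fold enrichment against interval width, both on log scales, for all peaks on chromosomes 1 to 19, X and Y (grey) and for those of the locus (coloured), with the DMSO list on the left and the VTP50469 list on the right. The first DMSO peak, of fold 26.5 and 1345 bp, lies at the upper edge of its list, while the VTP50469 peak, of fold 7.77 and 284 bp, lies within the bulk of its own.

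Among the 305 DMSO peaks that overlapped a VTP50469 peak, the share of the interval covered had a median of 88.5% and quartiles of 77.9% and 97.5%. The value of 21.1% at Runx2 was the third lowest of the 305, and 16 of them lay under 50%. The 9 DMSO peaks stronger than it were covered by 82.4 to 100.0%. Among them were wide intervals with folds of 1.51, 1.67 and 2.51, covered by 100, 99.4 and 100%. The others of the 9, with folds of 28.0 to 61.4, were covered by 82.4 to 95.3%. Among the 133 shared peaks of the strongest bin the median was 87.1%, and 1 was covered less than the Runx2 peak, at 20.8%. Low cover recurred among wide intervals. Of the 23 shared DMSO peaks at least as wide as that at Runx2, a set chosen after its value was seen, 8 were covered by less than 50%, Runx2 included, and 2 by less than Runx2; their median was 81.8%. The shared peak of Nr4a2, the nuclear receptor gene named below, was covered by 39.9%. This is a description of 2 libraries: the width of an interval depends on the caller's threshold and on depth as well as on the binding, and their parts were not tested.

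**Figure D3:**
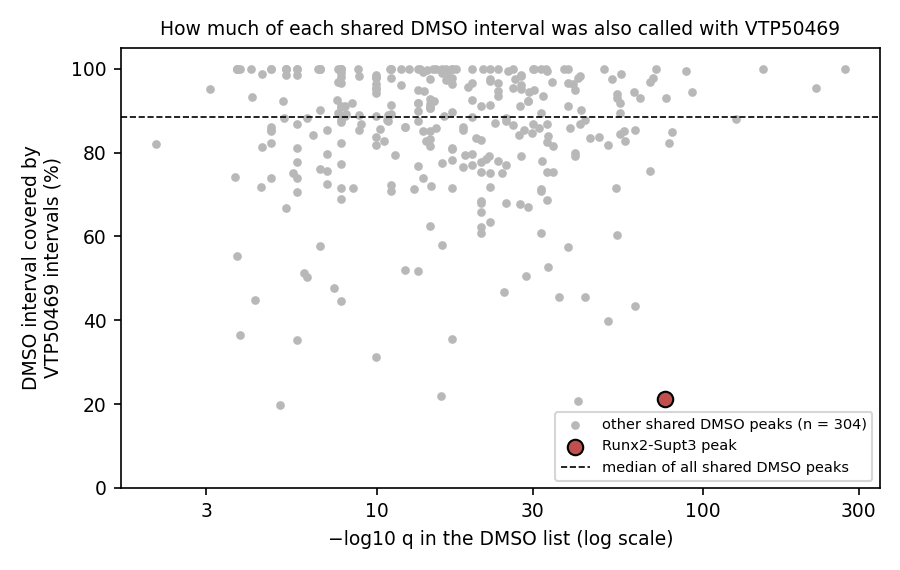
For each of the 305 DMSO peaks that overlapped a VTP50469 peak, the percentage of its interval covered by VTP50469 intervals, against its −log10 q in the DMSO list (log scale). The dashed line is the median of 88.5%. The Runx2 peak, in red at 21.1%, lies far below the stronger peaks to its right, which start at 82.4%. Those peaks include intervals with folds of 1.51, 1.67 and 2.51.

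The distances from the tract to the next peaks on its chromosome are a description, since the usual spacing of peaks was not worked out. Chromosome 17 held 24 DMSO and 11 VTP50469 peaks in all. The next DMSO summits lay 3931 kb towards lower and 6447 kb towards higher coordinates. The next VTP50469 summit towards higher coordinates lay at nearly the same place, 6446 kb away, but towards lower coordinates there was one at 636 kb. That peak lay inside Clic5, a chloride intracellular channel gene, at 44171147 to 44171431, with a fold of 4.76 and a −log10 q of 5.99, and it overlapped no DMSO peak.

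No other gene around the tract had a DMSO peak. Of 15 further protein-coding genes with a span within 500 kb of the joint span of Runx2 and Supt3, Clic5 was the 1 gene with a peak in either list. The others were Rcan2, Enpp5, Enpp4, Cdc5l, Spats1, Aars2, Tcte1, Tmem151b, Nfkbie, Slc35b2, Hsp90ab1, Slc29a1, Mymx and the gene 4930564C03Rik, which lies within the Supt3 span 69745 bp from the nearest summit. The long non-coding gene Runx2os3 lies within the Runx2 span, 244501 bp from the nearest summit, and had no peak either. As 1.48% of all protein-coding genes had a DMSO peak, a lack of DMSO peaks among 15 neighbours says little. Runx2 and Supt3 are long genes, of 318811 and 342177 bp. Among the 514 protein-coding genes at least as long as Runx2, 45 had a DMSO peak in the span or within 10 kb (8.75%), and 9 of them, Runx2 and Supt3 included, had at least 3.

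Over all 21887 protein-coding genes, 1.48% had a DMSO peak and 1.06% a VTP50469 peak by this rule. At least 3 DMSO peaks were found for 41 genes, or 0.187%, and 16 of these had more than Runx2. In 34 of the 41 the VTP50469 list held fewer peaks than the DMSO list, and in 4 it held none. These genes were picked by their DMSO counts, and the DMSO list was the longer, with 613 peaks against 400. Both points favour a lower VTP50469 count, so the 34 is no measure of loss at such genes, which was not tested. For comparison, the DMSO list reached 325 genes in all, and 187 of them were reached by both lists. Neighbouring genes share peaks, as Runx2 and Supt3 do, so these are counts of genes and not of separate sites.

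Neighbouring DMSO summits no more than 50 kb apart were joined into chains, of which 39 held at least 3 peaks. The Runx2 chain was compact: its summits spanned 2747 bp, the second shortest of the 39, whose median was 15713 bp. By the −log10 q of its strongest peak it was number 4 of the 39, and by fold number 3. The chains ahead by −log10 q included that at 3001199 to 3038076 of chromosome 9, with a strongest fold of 2.51. Such chains of low fold were not set apart in these ranks. Of the 22 chains of exactly 3 DMSO peaks, 3 held no VTP50469 peak, 7 held 1 (that at Runx2 among them), 7 held 2 and 5 held 3 or more. Going from 3 peaks to 1 was therefore not particular to this chain.

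**Figure D4:**
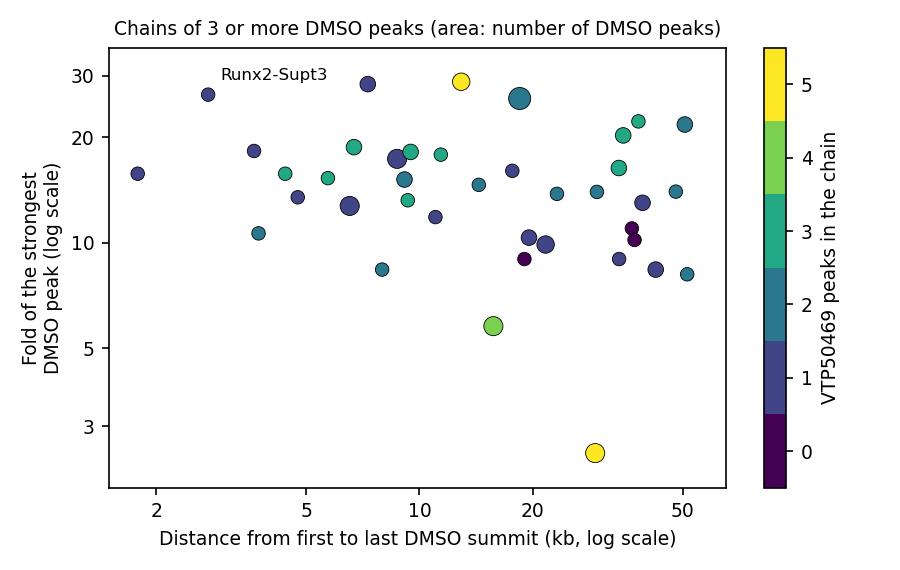
The 39 chains of at least 3 DMSO peaks, by the distance from first to last summit in kb and the fold of the strongest peak (both log scales); the area of a point shows the number of DMSO peaks and its colour the number of VTP50469 peaks. The Runx2 chain, with summits spanning 2747 bp and a strongest fold of 26.5, lies at the upper left, where few other chains do.

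The genes most like Runx2 by their numbers of peaks in the 2 libraries, with ties broken by the strongest DMSO fold, were LOC105244150, Emsy, Mbnl1, Nipbl and Gphn, each with 3 DMSO peaks and 1 VTP50469 peak. LOC105244150 is a predicted gene that overlaps the upper end, by coordinate, of the span of Nr4a2, a nuclear receptor gene with the same peaks. Its strongest DMSO fold was 18.3, in an interval of 1831 bp, and the summits spanned 3637 bp; the VTP50469 fold was 8.66 in its own list. Mbnl1, a splicing regulator gene, had a compact tract too, with summits over 4751 bp, a strongest DMSO fold of 13.5 and a VTP50469 fold of 10.4. Emsy, which encodes a partner of BRCA2, had a strongest DMSO fold of 16.0 and a VTP50469 fold of 15.3, with summits over 17642 bp. Nipbl, the cohesin loader gene, and Gphn, which encodes the scaffold protein gephyrin, had weaker and more scattered peaks. Their strongest DMSO folds were 8.99 and 7.04, over 33891 and 96950 bp. In each of the 5, as at Runx2, 1 of the 3 DMSO peaks overlapped the VTP50469 peak. The genes were picked for these numbers of peaks, and 77.8% of all VTP50469 peaks overlapped a DMSO peak. The overlap is therefore no result about them. Nothing in these counts speaks to shared function.

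The tract was not matched by peaks at the other genes of the RUNX family. Of the family list (Runx1, Runx2, Runx3 and the shared partner gene Cbfb), 1 of 4 had a DMSO peak and 1 of 4 a VTP50469 peak, in each case Runx2. The nearest DMSO summit lay 4989 kb from Runx1, 10228 kb from Runx3 and 19705 kb from Cbfb. The nearest VTP50469 summits lay 4989, 10514 and 19705 kb away. Against a background of 1.48% of genes, a count of 0 among so few says little.

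Of 26 genes encoding partners of RUNX2, which include CBFB, TLE corepressors, SMAD proteins, histone deacetylases, menin and MLL, 2 had a DMSO peak and the same 2 a VTP50469 peak. These were Ets1, an ETS transcription factor gene, with 1 peak in each list and folds of 10.9 and 8.45, and Kat6b, a histone acetyltransferase gene, with 1 DMSO peak of fold 15.0 and 2 VTP50469 peaks, the stronger of fold 12.1. Men1, which encodes menin, and Kmt2a, which encodes MLL, had no peak. The drug blocks the contact between their proteins. The nearest DMSO summit lay 8324 kb from Men1 and 7259 kb from Kmt2a. None of 19 genes that RUNX2 controls in bone, such as Sp7, Spp1, Ibsp and Bglap, had a peak in either list. Of 24 SAGA genes, 1 had a peak in each list, Supt3, through the peaks it shares with Runx2. In all, 4 of the 72 genes on these lists had a DMSO peak and 4 a VTP50469 peak, Runx2 and Supt3 included by the choice of locus. Over all protein-coding genes the shares were 1.48% and 1.06%, and against them counts of 0 to 2 in lists this short say little.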

How the data were processed

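Each pull-down library has its own peak list from the authors, on the mm10 build. With 1 library per treatment there were no replicates to pool. Per the submitters' processing notes the tools were MACS2, bedtools, STAR 2.7.5a, SAMtools 1.95, bcl2fastq 2.20.0.422 and Picard 2.9.4. Their roles and settings, the threshold and the control are not stated in these notes. The deposited values are a fold enrichment (a ratio to background), a −log10 p-value, a −log10 q-value and, for each peak, a summit position; the deposited score restates the q-value and was not used. The lists carry no read totals, which leaves the depth of each library unknown from the files alone.

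On chromosomes 1 to 19, X and Y there were 613 peaks with DMSO and 400 with VTP50469, and peaks elsewhere were left out. An overlap of 1 bp made a peak shared. Genes, starts and sequences came from RefSeq tables of GRCm38.p6, and all 72 listed genes were found. The software was Python 3.11.15 with scipy 1.17.1, pandas 2.3.3, numpy 2.4.6 and matplotlib 3.10.9, and the gene assignment was tested on simulated data. Genes named were Runx2, Supt3, their protein-coding neighbours within 500 kb, listed genes with a peak, and up to 5 genes most like Runx2 by counts of peaks; Men1, Kmt2a, the other RUNX family genes, examples of bone targets, Nr4a2 and Runx2os3 were added for context. The members, lists and rules were chosen with earlier results of these data known. Alternatives covered flanks, thresholds, the overlap rule, list length and the chain gap. With 1 library per treatment no test across samples was made.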

Additional observations from a re-analysis of the deposited data

How the results depend on the processing

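Of 57 alternative values for 16 results, 50 stayed within 1.5 times the main count or within its 95% binomial interval, and 7 moved. The locus held 3 DMSO peaks and 1 VTP50469 peak at flanks of 0, 2 and 50 kb, with −log10 q thresholds of 5 and 10, with a fold threshold of 5, when whole intervals were assigned, and with chain gaps of 10 and 100 kb. The VTP50469 peak passed the −log10 q threshold of 10 only narrowly, at 10.02. What moved was the overlap. With reciprocal overlap of at least 50 percent, 0 DMSO peaks and 0 VTP50469 peaks of the locus were shared, by construction, since the VTP50469 interval is so much narrower. With intervals of both lists extended by 1 kb, 2 DMSO peaks were shared, because the extended VTP50469 interval then meets the extended second peak. Over the whole DMSO list the share without a counterpart, which extension can only lower, was then 46.0%. It was 45.8% at −log10 q of at least 10 in both lists and 39.8% at equal list length, against 50.2%; the cause was not tested. With a flank of 50 kb, 73 protein-coding genes had at least as many DMSO peaks as Runx2, by construction.

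No paired analysis was possible because the treatments had 1 library apiece. Each value rests on a single library, and the weaker peaks are the least certain.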

Other observations

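A peak's fold and p-value together fix how many fragments covered its summit, if the caller used Poisson probabilities, added 1 to both terms of the ratio and scaled each library to its control. None of the sources used here states these settings. Each peak of the locus had exactly 1 whole number of fragments that met its listed −log10 p within 0.01. So did 578 of the 613 DMSO peaks, while 7 had no such number and 28 had several. In the VTP50469 list 382 of 400 peaks had exactly 1, 5 had none and 13 had several. The first DMSO peak had 189 fragments, the second 94 and the third 71. The VTP50469 peak had 50.

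The background under these summits was rebuilt with them. At the shared summit it was 1.16 times the genome-wide level with DMSO and 1.16 times that level with VTP50469. At the second DMSO summit it was 2.28 times the genome-wide level and at the third 1.00 times. The second peak therefore had more fragments than the third at a lower fold, so the order of these peaks differs between fold and fragments.

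The next values assume in addition that both lists were called against a common control, which no source states. On that assumption the VTP50469 library was 5.50% less deep than the DMSO library. At the shared summit the VTP50469 height was 0.280 of the DMSO height after scaling for depth, with an exact 95% interval of 0.201 to 0.384. The interval covers counting error between these 2 libraries and no spread between replicates. The locus was chosen with its folds in both lists known, so the interval is no test of a difference. The 2 DMSO peaks without a counterpart can be bounded in a similar way. At the second, a VTP50469 peak would have needed 39 fragments to reach the lowest −log10 p in that list, 5.85, or 0.439 of the DMSO height after scaling. At the third it would have needed 25 fragments, or 0.373. A site above these heights but called over less than the smallest width in the list, 240 bp, would be missed as well, so the bounds hold for peaks of at least that width. Among the 308 DMSO peaks without a counterpart, the second peak was number 9 by fragments and the third number 38, and their median was 48.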
